A study of Homo sapiens with 12 samples.

Results

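The untreated state of SK-N-SH cells was described from the 3 libraries labelled DMSO, out of 12 libraries in the series. These 3 were chosen by their treatment label alone, and no measured value entered the choice. SK-N-SH is an established human neuroblastoma line whose cultures are known to hold neuroblast-like cells and flat, substrate-adherent cells side by side. All 3 libraries carry the genotype label WT and received the solvent with 0 nM of chaetocin, the inhibitor used elsewhere in the series. The 9 other libraries come from the same line and were exposed to 50 nM chaetocin, to a control siRNA (siNC) or to an siRNA against the histone methyltransferase SUV39H1. They appear here only beside TH and COL1A2, 2 genes with low or no counts in DMSO. The cells were grown in MEM with serum, and total RNA was sequenced on a DNBSEQ platform, per the labels' protocols. The submitters call the replicates biological triplicates but name no separate cultures or days, so that the spread given here may be partly technical.

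Neuroblastoma arises from the sympathoadrenal lineage of the neural crest. Cells of such tumors are known to occupy a noradrenergic state, held by a circuit of transcription factors that includes HAND2 and GATA3, or a mesenchymal state marked by PRRX1, TWIST1 and matrix genes. In bulk RNA, fewer cells of a type and less RNA per cell cannot be told apart, and a line that expresses both sets of regulators may do so in the same cells or in different ones.

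Levels are given in TPM, a unit of transcript abundance that corrects for gene length and has the same sum in each library, as means ± SD over the libraries (n = 3 throughout). The libraries held 19644426, 19976995 and 19944011 expected counts in DMSO 1, 2 and 3. A gene was called detected at a mean of at least 1 TPM, and 12393 of the 18739 genes, 66.1%, met that level. Counts of detected members in lists and families are to be read against that share. Another 2737 genes lay between 0.1 and 1 TPM, 3609 lay under 0.1 TPM, and 1664 had 0 counts in all 3 libraries. A count of 0 over the 3 libraries allows a level of up to 0.0504 CPM, a count scaled to library size, which covers counting error only. The libraries were close but not interchangeable. Among genes of at least 10 TPM, the highest library exceeded the lowest by a median of 1.13-fold. The variance between libraries was 4.69 to 11.3 times the counting variance, so that no library was a copy of another. DMSO 1 and DMSO 2 were the closest pair, with a median absolute difference of 0.09 on the log2 scale, and DMSO 3 was 0.16 from DMSO 1 and 0.11 from DMSO 2. DMSO 1 was the highest of the 3 libraries for 55.1% of detected genes, against 26.5% for DMSO 2 and 18.4% for DMSO 3.

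The most abundant messages encoded glycolytic, cytoskeletal, ribosomal and mesenchymal proteins. GAPDH, a glycolytic enzyme, stood first at 11953, 12165 and 11895 TPM in DMSO 1, 2 and 3. Cytoplasmic actin ACTB followed at 10234 ± 327 TPM, the actin-binding thymosin TMSB10 at 9549 ± 726 TPM and the intermediate filament vimentin, VIM, at 9298 ± 72.3 TPM. The 25 most abundant genes held 8 ribosomal protein genes, led by RPS27 at 9168 ± 212 TPM and RPS2 at 8698 ± 244 TPM. They also held the galectin LGALS1 at 6444 ± 352 TPM, the annexin ANXA2 at 4793 ± 190 TPM, the ferritin chains FTL and FTH1 at 5601 ± 464 and 4348 ± 248 TPM, and the elongation factor EEF1A1 at 5093 ± 241 TPM. Secreted products were among them too. Midkine, MDK, a heparin-binding growth factor, was at 5289, 5491 and 6006 TPM, and the matrix protein TGFBI at 3980, 4326 and 4051 TPM. MTRNR2L2, at 6777 ± 340 TPM, is a nuclear gene almost identical to mitochondrial ribosomal RNA, so the origin of its reads is uncertain.

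The transcriptome was moderately concentrated. The 10 most abundant genes made up 8.78 ± 0.197% of TPM, the 100 most abundant 33.5 ± 0.728%, and 302 genes made up 50%. Cytosolic ribosomal protein genes alone took 17.7%, and 52 of them stood among the first 100. Over all genes, 144 reached at least 1000 TPM, 1593 at least 100 TPM and 7613 at least 10 TPM.

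**Figure D1:**
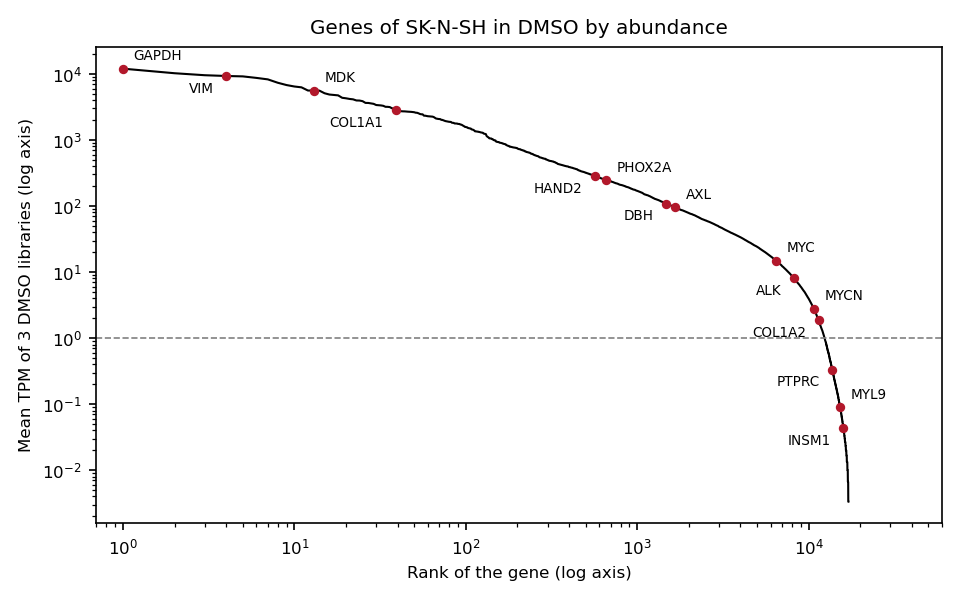
Mean TPM of the 3 DMSO libraries (log axis) against the rank of each gene (log axis), with genes named in the text marked in red and the detection level of 1 TPM dashed. Levels ran from 12004 TPM for GAPDH to under 0.1 TPM for MYL9 and INSM1, with the lineage factors HAND2 and PHOX2A at ranks 565 and 658.

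Many of the abundant translation genes are known to share a start-site motif, a C followed by a run of pyrimidines, through which their translation is controlled. Bases around an annotated start of 4 abundant genes are shown to let the motif be seen. Each line holds 30 bases centred on a RefSeq start (GRCh38.p14), with a C at the start and its unbroken pyrimidine run in capitals.
RPS27: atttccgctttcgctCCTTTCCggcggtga
RPL41: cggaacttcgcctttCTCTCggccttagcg
EEF1A1: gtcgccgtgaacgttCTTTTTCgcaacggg
GAPDH: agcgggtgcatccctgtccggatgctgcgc
They lie at chr1:153990747-153990776 on the plus strand for RPS27, chr12:56116618-56116647 on the plus strand for RPL41, chr6:73521018-73521047 on the minus strand for EEF1A1 and chr12:6535249-6535278 on the plus strand for GAPDH. In RPS27, RPL41 and EEF1A1 the annotated start was a C followed by at least 4 pyrimidines, read on the gene's own strand. In GAPDH it was not, but the start shown there lies inside the gene, whose annotated span begins upstream at chr12:6534517. The bases shown for GAPDH may therefore not be those of its abundant message. Of 27305 RefSeq promoters, 4.04% began in that way.

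The noradrenergic regulators were nearly all present. Of 26 noradrenergic transcription factors, 25 were detected, 96.2% against the 66.1% over all genes. Their median was 20.8 ± 2.65 TPM against 5.18 TPM over all genes. The gene lists and the detection level were chosen with earlier results of these data known, so such shares and medians describe the lists and test nothing. HAND2, a basic helix-loop-helix factor of sympathetic neurons, was the highest at 305, 270 and 283 TPM. PHOX2A, a homeodomain factor required for the noradrenergic phenotype, stood at 281, 227 and 237 TPM. GATA2, a zinc finger factor of the same lineage, was at 184, 137 and 129 TPM and GATA3, another, at 75.3, 58.4 and 54.5 TPM. The T-box factor TBX2 was at 135 ± 2.33 TPM, the homeodomain partners PBX3 and MEIS2 at 98.5 ± 8.09 and 81.0 ± 6.87 TPM, and HAND1 at 52.0 ± 8.67 TPM. SIX3, LMO1 and ISL1 lay between 22.4 and 40.6 TPM. Below them SOX11, at 9.40 ± 1.21 TPM, and TFAP2B, at 14.1 ± 3.06 TPM, are factors of neural crest and neuronal development. INSM1, a zinc finger factor of neuroendocrine cells, was the member not detected, with 0, 2 and 2 counts.

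The mesenchymal regulators stood at similar levels. Of 33 measured mesenchymal transcription factors, 29 were detected, 87.9% against the 66.1% over all genes. Their median was 16.7 ± 1.51 TPM, and the noradrenergic and mesenchymal lists share 0 members. The mesenchymal list, too, was chosen with earlier results known. PRRX1, a homeodomain factor of mesenchymal cells, was at 303, 293 and 275 TPM, within the range of HAND2. The inhibitor of differentiation ID1 stood at 222 ± 6.22 TPM, the basic helix-loop-helix factor TWIST1 at 162 ± 8.15 TPM and the AP-1 subunit FOSL1 at 158 ± 13.4 TPM. The Hippo pathway effectors YAP1, WWTR1 and TEAD1 lay between 20.3 and 23.7 TPM. The regulators of epithelial to mesenchymal transition formed a graded series. TWIST2 was at 28.1 ± 3.32 TPM, SNAI2 at 18.4 ± 1.49 TPM, SNAI1 at 16.1 ± 1.49 TPM, ZEB2 at 4.47 ± 0.638 TPM and ZEB1 at 3.13 ± 0.221 TPM. The values of SNAI2 and SNAI1 overlapped between libraries. The factors MEOX2, with 0 counts, FOXF1, at 0.01 TPM, MEOX1, at 0.04 TPM, and EGR3, at 0.13 TPM, were not detected.

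**Figure D2:**
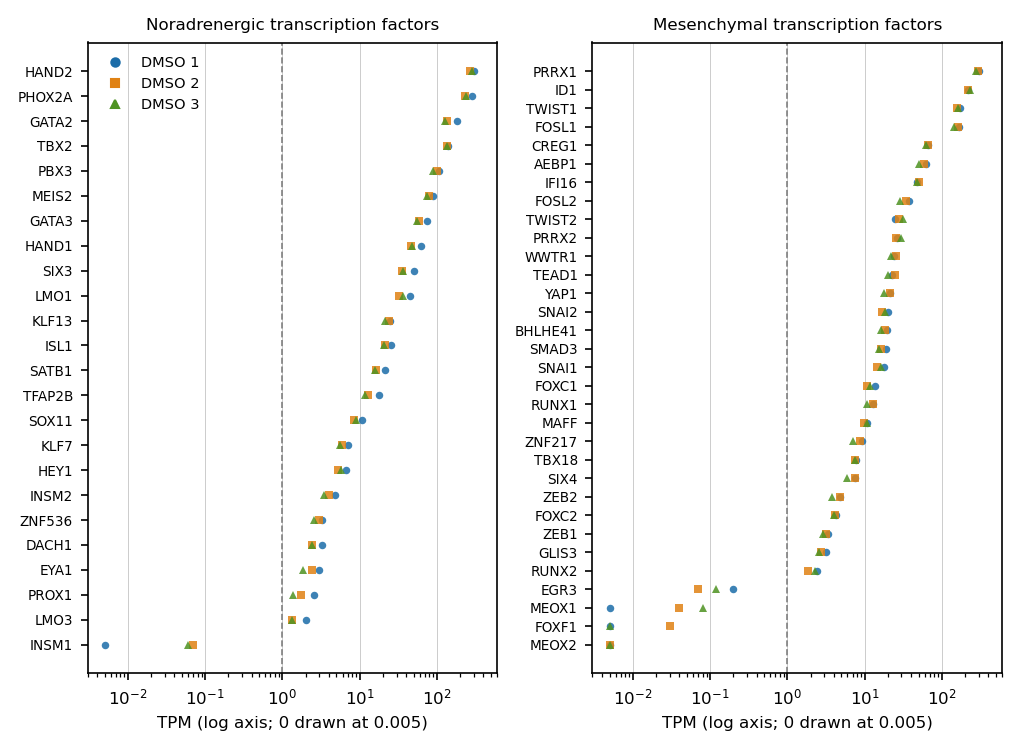
TPM (log axis, 0 drawn at 0.005) of noradrenergic (left) and mesenchymal (right) transcription factors, with 1 marker per DMSO library and the detection level of 1 TPM dashed. HAND2 and PHOX2A on the left and PRRX1, ID1, TWIST1 and FOSL1 on the right all exceed 100 TPM, and DMSO 1 is the highest library for every detected factor on the left.

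The promoters of PHOX2A and PRRX1, a leading factor of each state, are printed from RefSeq to compare their CG content, with CG in capitals. Each covers 250 bases before and 50 after the annotated start.
PHOX2A: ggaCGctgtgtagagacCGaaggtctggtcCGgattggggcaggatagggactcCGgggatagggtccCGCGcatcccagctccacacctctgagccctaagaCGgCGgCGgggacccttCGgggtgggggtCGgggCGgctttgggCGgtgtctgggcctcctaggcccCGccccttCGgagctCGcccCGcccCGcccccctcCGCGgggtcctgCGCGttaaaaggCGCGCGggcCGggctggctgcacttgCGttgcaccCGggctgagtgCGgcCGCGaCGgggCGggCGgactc
PRRX1: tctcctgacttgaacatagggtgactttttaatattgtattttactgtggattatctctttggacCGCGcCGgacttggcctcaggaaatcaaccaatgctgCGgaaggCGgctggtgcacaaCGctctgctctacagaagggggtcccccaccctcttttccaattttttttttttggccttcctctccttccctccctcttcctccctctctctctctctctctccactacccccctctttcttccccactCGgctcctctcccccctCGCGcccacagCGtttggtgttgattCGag
That of PHOX2A is chr11:72244127-72244426 on the minus strand and that of PRRX1 is chr1:170663881-170664180 on the plus strand (GRCh38.p14). PHOX2A had 34 CG, a number reached by 15.3% of the 27305 promoters, and PRRX1 had 11, reached by 54.4%, against a median of 14. The pair differed in CG content while their levels, 249 ± 28.8 and 290 ± 14.1 TPM, lay close together. A relation between CG content and level was not tested.

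Noradrenergic factors varied together between libraries. All 25 detected members were highest in DMSO 1, or 100% against the 55.1% over all detected genes, and their median level was 23.8, 19.3 and 19 TPM in DMSO 1, 2 and 3. On the log2 scale their median deviation from the gene's own mean was 0.21 in DMSO 1, against 0.05 over all detected genes. All 10 detected neuroblast markers, some of which are the same factors, were also highest there, as were 24 of 27 genes of the neuronal cytoskeleton and 13 of 14 neuronal RNA-binding and adhesion genes. Lists that are not neuronal did likewise, with 10 of 11 genes for H3K9 methyltransferases and HP1 proteins and 23 of 30 receptor tyrosine kinases. Among mesenchymal transcription factors the number was 21 of 29, among mesenchymal cell proteins 12 of 28, and among matrix proteases, crosslinkers and inhibitors 10 of 37. Another property moved with the same libraries. Among genes of at least 10 TPM, the median difference of DMSO 3 from DMSO 1 ran from 0.06 on the log2 TPM scale in the class of genes with the shortest effective length to -0.24 in the class with the longest, of 4 classes of about equal size. For DMSO 2 against DMSO 1 it ran from 0.02 to -0.08. The part of this length trend in the noradrenergic difference was not tested. Without DMSO 1 the noradrenergic median was 19.2 TPM.

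Among proto-oncogenes and oncofetal regulators, 14 of 17 were detected, 82.4% against the 66.1% over all genes, and MYCN was among the lower ones. The line is known to lack amplification of MYCN, the defining oncogene of high-risk neuroblastoma. MYCN was at 3.47, 2.67 and 2.25 TPM, below MYC at 17.4, 13.9 and 13.5 TPM in each library. The chromatin protein HMGA1 led the list at 1057 ± 65.6 TPM, followed by the cell cycle genes CDK4 at 260 ± 7.69 TPM and CCND1 at 245 ± 36.1 TPM, and by HMGA2 at 114 ± 12 TPM. LIN28B, a repressor of let-7 microRNAs, was below the detection level at 0.633 ± 0.091 TPM.

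Catecholamine genes were expressed in part, with the first enzyme of the pathway at 0. Noradrenaline is made by tyrosine hydroxylase (TH), dopa decarboxylase (DDC) and dopamine beta-hydroxylase (DBH) in turn. TH had 0 counts in all 3 libraries, and over the 9 other libraries it had 4 counts in all, at most 1 in any of them. DDC was at 54.8, 41.4 and 40.2 TPM, and DBH at 126, 105 and 95.4 TPM. DBH exceeded DDC in each library, and the libraries kept the same order for each gene. DMSO 1 was the highest library for 7 of the 8 detected catecholamine genes and for 55.1% of all detected genes. CYB561, which supplies electrons for DBH in the vesicle, was at 63.9 ± 2.73 TPM, and GCH1, which makes the cofactor of TH, at 3.99 ± 0.390 TPM. Uptake and breakdown were represented by the noradrenaline transporter SLC6A2 at 30.4 ± 6.20 TPM, by MAOB at 10.8 ± 1.12 TPM and by MAOA at 6.17 ± 1.29 TPM. The vesicular monoamine transporters SLC18A1 and SLC18A2 lay at 0.683 ± 0.172 and 0.147 ± 0.061 TPM. PNMT, which makes adrenaline, was at 0.17 TPM, and the dopamine transporter SLC6A3 had 0 counts.

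Secretory vesicle proteins were abundant, yet their prohormone convertases were near 0. Of 11 genes for granins and prohormone processing, 9 were detected, 81.8% against the 66.1% over all genes. VGF, a granin-like neuropeptide precursor, was at 576, 554 and 585 TPM. The amidating enzyme PAM stood at 402 ± 29.3 TPM, chromogranin A (CHGA) at 182 ± 28.4 TPM, SCG2 at 179 ± 18 TPM, carboxypeptidase E (CPE) at 162 ± 2.56 TPM and chromogranin B (CHGB) at 16.0 ± 2.55 TPM. PCSK1 was at 0.02 TPM with 3 counts and PCSK2 had 0 counts, whereas PCSK1N, an inhibitor of PCSK1, was at 102 ± 12.5 TPM. Of 21 measured neuropeptide genes, 9 were detected, or 42.9%. They were led by NMB at 84.8 ± 6.88 TPM, GRP at 35.6 ± 5.90 TPM, VIP at 24.6 ± 4.15 TPM, ADM at 18.6 ± 1.56 TPM and GAL at 18.3 ± 2.42 TPM. NPY, a peptide co-released with noradrenaline, was at 8.47 ± 1.20 TPM. SST, PDYN, CARTPT, TAC1, PNOC, CCK and POMC had 0 counts.

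All 27 genes of the neuronal cytoskeleton and growth cone were detected, with a median of 78.8 TPM. The alpha-tubulin TUBA1A was at 2060, 1839 and 1850 TPM and UCHL1, a neuronal ubiquitin hydrolase, at 1465, 1521 and 1667 TPM. These highest members ordered the libraries differently, with DMSO 1 the highest for TUBA1A and the lowest for UCHL1. TUBB3 was at 767 ± 24.9 TPM, the microtubule regulators STMN1 and STMN2 at 758 ± 31.7 and 321 ± 63.2 TPM, and the growth cone protein GAP43 at 144 ± 11.8 TPM. The lowest members included the dendritic protein MAP2 at 7.34 TPM, DCX, a marker of young migrating neurons, at 6.17 TPM, the neurofilaments NEFL and NEFH at 10.5 and 2.73 TPM, and peripherin (PRPH) at 1.99 TPM.

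The mesenchymal cell proteins formed the most abundant of the lists. Of 29, 28 were detected and 24 exceeded 100 TPM, with a median of 396 TPM. After VIM, LGALS1 and ANXA2 came S100A11 at 2710 ± 83.0 TPM, S100A6 at 2629 ± 119 TPM and the tropomyosin TPM1 at 1296 ± 37.7 TPM. The smooth muscle actin ACTA2 stood at 470 TPM, the surface proteins NT5E and THY1 at 403 and 396 TPM, and N-cadherin (CDH2) at 224 TPM. MYL9, a regulatory myosin light chain, was the exception at 0.10, 0.14 and 0.03 TPM.

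The markers of neuroblasts and fibroblasts were nearly all detected, to be read against 66.1% over all genes. Those of epithelium and glia were detected in part, and those of blood, endothelium and melanocytes mostly were not. Of the neuroblast markers 10 of 12 were detected, with TH and SLC18A1 below the level. All 9 fibroblast markers were detected, from COL1A1 at 2825 TPM down to DCN at 8.25 TPM and COL1A2 at 1.86 TPM. Of 9 Schwann and glial markers 4 were detected, PMP22 at 50.7 TPM and the others at under 2 TPM, while the defining factors SOX10 and FOXD3 and the adhesion gene CDH19 had 0 counts. Of 7 epithelial markers 4 were detected, 57.1% and not far below the share over all genes. The keratins KRT18 and KRT8 were at 103 and 25.2 TPM, but E-cadherin (CDH1) was at 0.183 TPM and EPCAM at 0.827 TPM. No marker of blood cells (0 of 7, with PTPRC the highest at 0.333 TPM), 1 of 7 of endothelium (TEK at 1.21 TPM) and 2 of 5 of melanocytes (PMEL and MITF at 1.75 and 1.59 TPM) passed 1 TPM.

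Receptor tyrosine kinases take up growth and survival signals at the cell surface. Of 53 members 30 were detected, 56.6% against the 66.1% over all genes. The collagen receptor DDR1 was highest at 102 ± 2.90 TPM and the GAS6 receptor AXL next at 102, 95.9 and 88.3 TPM. These values overlap between the genes. PTK7 followed at 74.8 ± 3.95 TPM, EPHA2 at 57.7 ± 2.92 TPM, PDGFRB at 56.0 ± 6.31 TPM, FGFR1 at 35.1 ± 1.55 TPM, PDGFRA at 33.2 ± 3.36 TPM and the GDNF-family receptor RET at 25.1 ± 5.25 TPM. ALK, a kinase mutated in part of neuroblastomas, was at 10.5, 7.78 and 5.97 TPM. The neurotrophin receptors NTRK3 and NTRK2 were at 4.31 ± 1.49 and 0.793 ± 0.291 TPM, and NTRK3 lay above NTRK2 in every library. KDR, FLT3 and ERBB4 were at 0.01 TPM or less.

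In the list of receptor kinase ligands 29 of 52 members were detected, 55.8% against the 66.1% over all genes, and MDK dominated it. Whether MDK acts through a receptor kinase in these cells was not examined. GAS6 was at 445 ± 14.0 TPM, VEGFB at 213 ± 7.53 TPM and VEGFC at 112 ± 1.46 TPM. Next came the ephrins EFNB3 and EFNA4 at 61.1 ± 2.25 and 51.0 ± 3.56 TPM, then FGF5 at 39.6 ± 2.48 TPM and the midkine relative pleiotrophin (PTN) at 33.3 ± 0.974 TPM. The ALK ligands ALKAL1 and ALKAL2 were at 0 and 0.08 TPM, and AREG, BTC and FGF9 also had 0 counts. IGF2, a fetal growth factor, was at 0.033 TPM.

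Ligands were then set beside a known receptor in 36 pairings, chosen after the values had been seen. In 17 both genes were detected, in 12 only the ligand, in 5 only the receptor and in 2 neither. Among the chosen pairings, GAS6 and AXL formed the most abundant with a kinase, at 445 and 95.3 TPM. MDK and the collagen receptor DDR1 were in none of the pairings, so the ranking does not cover them. HGF and MET stood at 11.8 and 11.1 TPM, and TGFB1 and TGFBR2 at 219 and 52.8 TPM. CXCL12 was low at 3.26 ± 0.386 TPM beside its receptor CXCR4 at 89.7, 71.5 and 65.6 TPM, and the scavenging receptor ACKR3 had 0 counts. The ligand-only group held BDNF at 8.0 TPM with NTRK2 at 0.793 TPM, VEGFC with FLT4 at 0.673 TPM, and VEGFA at 24.4 TPM with KDR at 0.0067 TPM. It also held all 8 neuropeptide pairings, of VIP, GAL, NPY, NMB and GRP, whose receptors ranged from 0.01 TPM for NPY1R to 0.31 TPM for VIPR2.

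**Figure D3:**
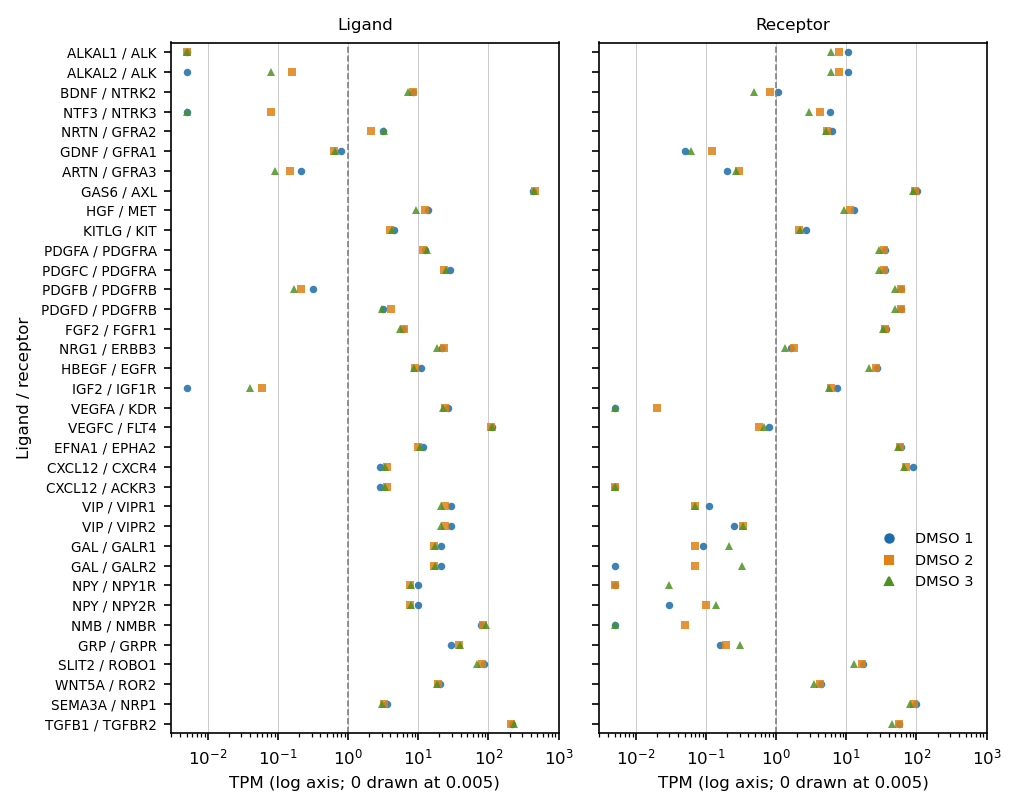
TPM (log axis, 0 drawn at 0.005) of the ligand (left) and the receptor (right) in pairings of the kind described, with 1 marker per DMSO library and the detection level of 1 TPM dashed. The GAS6 and AXL row lies to the right of 1 TPM in each panel, while the VIP, GAL, NPY, NMB and GRP rows do so only for the ligand.

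Receptors for transmitters were sparser. Of 38 ligand-gated channels 15 were detected, 39.5% against the 66.1% over all genes. The highest were the ganglionic nicotinic subunits CHRNA3 at 46.1, 35 and 29.3 TPM and CHRNB4 at 14.2, 11.3 and 9.06 TPM. The order of the libraries was the same for both genes. DMSO 1 was the highest library for 13 of the 15 detected channels and for 55.1% of all detected genes, so the shared order is not particular to this pair. CHRNB2, CHRNA5 and CHRNA7 lay between 5.07 and 7.31 TPM, and HTR3A and GRIN2A had 0 counts. Of 49 G protein-coupled receptors for transmitters and peptides 19 were detected, with the bradykinin receptor BDKRB1 at 18.8 ± 0.416 TPM, the adrenoceptor ADRA1D at 13.3 ± 0.865 TPM and the muscarinic receptor CHRM1 at 9.25 ± 1.49 TPM. ADRB1, DRD1, DRD3, DRD5 and EDNRB were among the 9 with 0 counts. Chemokine, lipid and protease-activated receptors were detected for 13 of 30 members, and the thrombin receptor F2R was the highest at 189, 180 and 167 TPM.

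Of 31 developmental pathway receptors 26 were detected, 83.9% against the 66.1% over all genes, with the Wnt receptors FZD7 and FZD2 at 56.2 ± 1.06 and 39.0 ± 1.48 TPM, the hedgehog transducer SMO at 37.9 ± 1.36 TPM, NOTCH3 at 28.1 ± 3.14 TPM and NOTCH2 at 28.0 ± 4.77 TPM. The values of these NOTCH genes overlapped between libraries. Of 20 neurotrophic and guidance co-receptors 15 were detected, 75% and near the share over all genes, led by NRP1 at 91.1 ± 8.50 TPM and the netrin receptor UNC5B at 39.4 ± 8.94 TPM, while the netrin receptor DCC had 0 counts. Among 13 surface antigens discussed as neuroblastoma targets, 11 were detected. CD276 (B7-H3) was at 205, 201 and 200 TPM, NCAM1 at 47.0 ± 7.07 TPM, L1CAM at 28.0 ± 6.51 TPM and GPC2 at 19.7 ± 2.43 TPM. The disialoganglioside GD2 is an antigen made by ST8SIA1 and B4GALNT1 in turn. ST8SIA1 was at 0.08, 0.09 and 0.13 TPM, below the detection level, and B4GALNT1 was at 16.0, 13.1 and 11.5 TPM.

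Levels of extracellular matrix genes were uneven. Of 44 collagen genes 22 were detected, below the 66.1% over all genes, and the median collagen was at 1.02 TPM against 5.18 TPM over all genes. COL1A1, which encodes the alpha-1 chain of type I collagen, was at 2857, 2946 and 2673 TPM. COL1A2, whose alpha-2 chain joins that chain in the usual type I heterotrimer, was at 2.61, 1.69 and 1.27 TPM with 137, 92 and 72 counts. The ratio of the means was 1522, and COL1A2 ranged from 0.78 to 1.57 TPM over the 9 other libraries of the series. Other chains of shared trimers stood closer together. COL4A2 was 3.03-fold above COL4A1, COL5A1 was 2.96-fold above COL5A2, and COL6A2 was 1.69-fold above COL6A1. COL3A1, a fibrillar collagen, was at 723 ± 42.8 TPM, the basement membrane collagen COL18A1 at 547 ± 35.6 TPM and COL8A1 at 288 ± 26.4 TPM. COL1A2 lies at chr7:94394895-94431227 and COL1A1 at chr17:50184101-50201631 (GRCh38.p14).

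Other matrix genes followed. Of 16 laminin and basement membrane genes 11 were detected, 68.8% and near the 66.1% over all genes. LAMB1 was at 246 ± 24.3 TPM, LAMC1 at 160 ± 22.9 TPM, nidogen NID1 at 141 ± 18.4 TPM and LAMA5, the highest alpha chain, at 62.7 ± 8.06 TPM. Of 26 integrins 17 were detected, 65.4% and also near the share over all genes. ITGA3 was at 645, 618 and 587 TPM and its partner ITGB1 at 432, 428 and 370 TPM. ITGB5 was at 188 ± 9.56 TPM and the fibronectin receptor chain ITGA5 at 85 ± 2.61 TPM. The leukocyte chains ITGAM and ITGAD were at 0.02 and 0.013 TPM. Of 45 glycoproteins and proteoglycans 37 were detected, or 82.2%. After TGFBI came SPARC at 892 ± 33.6 TPM, MFAP4 at 672 ± 41.4 TPM, fibronectin (FN1) at 636, 612 and 433 TPM and tenascin C (TNC) at 322 ± 41.4 TPM. FN1 was the lowest in DMSO 3 and TGFBI in DMSO 1.

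Matrix-modifying enzymes and their inhibitors were detected for 37 of 46 members, 80.4% against the 66.1% over all genes. The prolyl hydroxylase subunit P4HB was at 1410 ± 32.8 TPM and the gelatinase MMP2 at 936 ± 22.3 TPM. Its inhibitors TIMP1 and TIMP2 were at 900 ± 67.9 and 738 ± 39.6 TPM. The plasminogen activator PLAT was at 728 ± 19.8 TPM. PLOD1 and PLOD3, lysyl hydroxylases of collagen, were at 182 and 241 TPM, while PLOD2 was at 0.01 TPM with 1 count, and MMP13 and TIMP4 had 0 counts.

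Among 58 other secreted regulators 39 were detected, 67.2% and near the 66.1% over all genes. IGFBP2, an insulin-like growth factor binding protein, was at 2995, 3383 and 3616 TPM, the dickkopf family members DKK3 and DKK1 at 904 ± 31.3 and 177 ± 10.8 TPM, the BMP antagonist GREM1 at 389 ± 33.7 TPM and clusterin (CLU) at 318 ± 17.9 TPM. The chemokine CCL2 was at 262, 246 and 249 TPM and TGFB1 at 219 ± 12.6 TPM. BMP4, BMP5, SFRP2, SHH and IGFBP1 had 0 counts, and NTN1 was at 0.02 TPM.

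The HOX genes, homeodomain factors in 4 clusters that mark position along the body axis, were on in short blocks. All 11 measured HOXA genes and all 9 HOXB genes lay under 0.1 TPM. In HOXC, 5 of 8 were detected, with HOXC4 at 28.1 ± 2.92 TPM, HOXC6 at 21.7 ± 0.736 TPM, HOXC5 at 9.71 ± 1.3 TPM, HOXC9 at 6.73 ± 0.967 TPM and HOXC8 at 4.88 ± 0.312 TPM. HOXC10, HOXC11 and HOXC13 lay under 0.1 TPM. HOXC4, HOXC5 and HOXC6 overlap and share an annotated start, at chr12:54016888-54056030 for the longest, so the split of reads between them is uncertain. In HOXD, 4 of 9 were detected. HOXD9 was at 31.4, 30.3 and 29.6 TPM, HOXD8 at 21.7, 18.6 and 20.5 TPM, HOXD3 at 3.48 ± 0.656 TPM and HOXD4 at 1.70 ± 0.460 TPM. HOXD10 followed at 0.16 TPM, so that in each of the 2 active clusters the detected genes ended at paralog group 9.

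**Figure D4:**
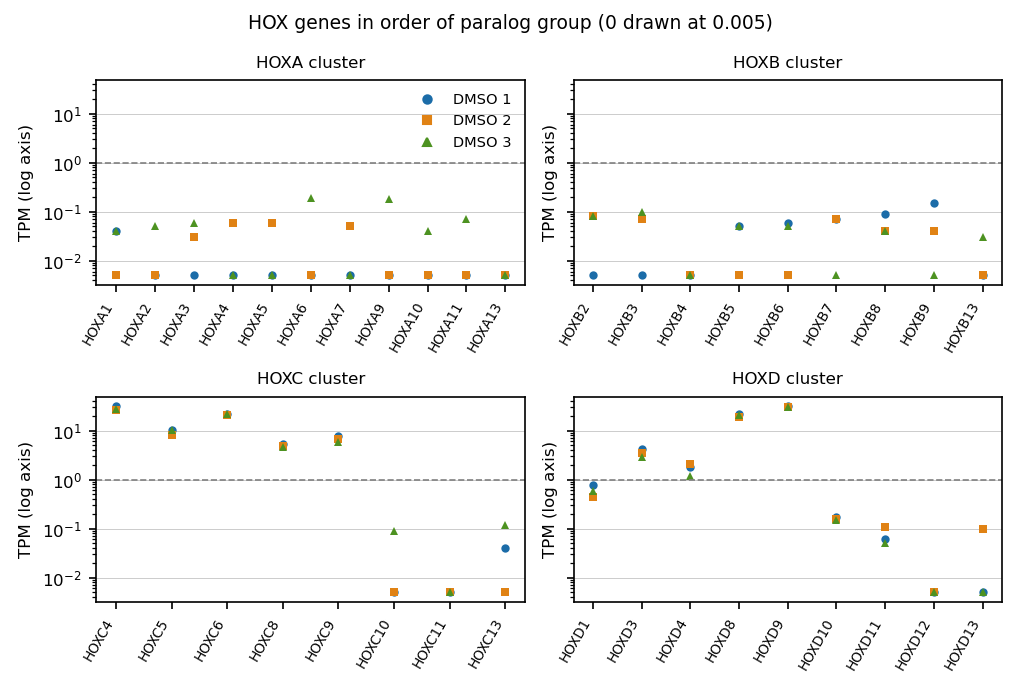
TPM (log axis, 0 drawn at 0.005) of the measured HOX genes in order of paralog group within each of the 4 clusters, with 1 marker per DMSO library and the detection level of 1 TPM dashed. HOXC4 to HOXC9 and HOXD3 to HOXD9 lie above 1 TPM, and all HOXA and HOXB genes have means under 0.1 TPM.

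Promoters of an active and a silent member are shown for their CG content, again as 300 bases from RefSeq with CG in capitals.
HOXD8: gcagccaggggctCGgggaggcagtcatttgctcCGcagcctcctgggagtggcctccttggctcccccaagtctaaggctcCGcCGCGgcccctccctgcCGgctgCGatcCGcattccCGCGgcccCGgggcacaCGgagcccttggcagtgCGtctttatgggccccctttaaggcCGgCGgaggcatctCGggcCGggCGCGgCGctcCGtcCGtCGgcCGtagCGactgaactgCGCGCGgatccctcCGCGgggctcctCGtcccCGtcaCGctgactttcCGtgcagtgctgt
HOXA9: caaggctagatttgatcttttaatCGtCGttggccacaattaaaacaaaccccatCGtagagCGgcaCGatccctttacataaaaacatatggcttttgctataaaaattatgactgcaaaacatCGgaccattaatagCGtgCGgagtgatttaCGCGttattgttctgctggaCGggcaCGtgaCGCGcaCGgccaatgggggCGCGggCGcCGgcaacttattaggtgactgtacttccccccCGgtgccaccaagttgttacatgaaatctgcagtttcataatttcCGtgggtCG
HOXD8 is shown from chr2:176129455-176129754 on the plus strand and HOXA9 from chr7:27165488-27165787 on the minus strand (GRCh38.p14). HOXD8 had 34 CG and HOXA9 had 22, a number reached by 37.6% of promoters. HOXA9 stood at 0.06 TPM with a promoter above the median of 14 CG, and here too a relation to level was not tested.

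Families of other tissues were below the detection level almost throughout. Of 102 olfactory receptors 2 were detected, at under 4 TPM, and 72 had 0 counts. None of 21 taste receptors, 22 keratin-associated proteins, 17 late cornified envelope and small proline-rich proteins, 7 type I interferons, 10 toll-like receptors or 9 UDP-glucuronosyltransferases reached 1 TPM. Not all of them were silent, since only 6 toll-like receptors and 15 taste receptors lay under 0.1 TPM. The 7 interferon genes, induced by viral infection, and the 17 cornified envelope genes of the epidermis all lay under 0.1 TPM. Some mostly undetected families held a few active members. Of 24 CC chemokines 3 were detected, and CCL2 was far above CCL7 at 2.75 ± 0.699 TPM. Of 17 mucins only MUC1 passed, at 31.9 ± 1.78 TPM, and of 38 keratins 7 did, led by KRT18. Antigens of the germline, which are known to be switched on in many tumors, were detected for 13 of 43 members. XAGE1A was at 116, 116 and 122 TPM, MAGEA3 at 97.2, 94.4 and 93.4 TPM, and MAGEA6 at 79.9, 87.7 and 80.5 TPM. Near-identical copies of these genes make the split between them uncertain. PRAME, another tumor antigen, was at 221, 198 and 205 TPM, whereas the 15 other members of its family all lay under 0.1 TPM. The placental glycoprotein genes PSG4 and PSG5 were at 26.4 ± 2.64 and 11.9 ± 1.09 TPM, and the inhibitor SERPINB7 was at 239 ± 5.76 TPM.

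**Figure D5:**
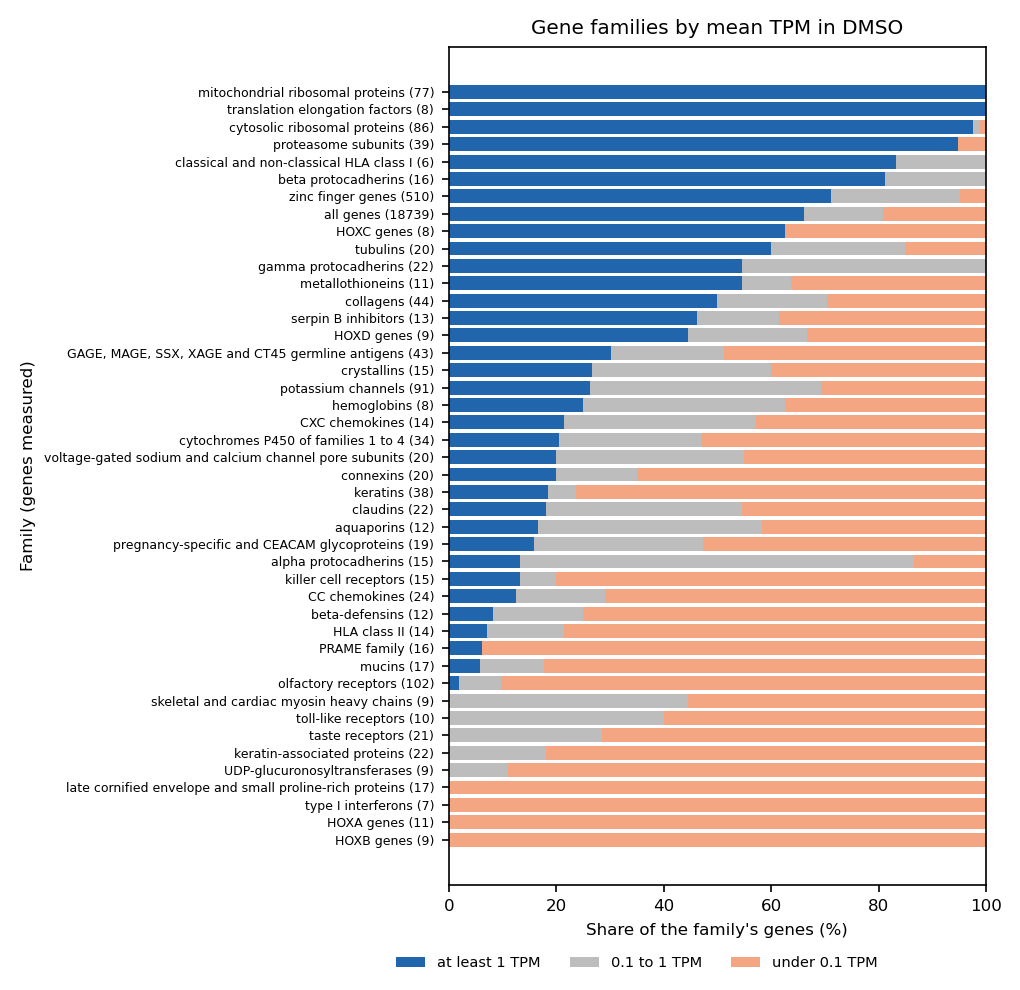
Share of the measured genes of each family (% of genes, family size in parentheses) with a mean of at least 1 TPM (blue), 0.1 to 1 TPM (grey) and under 0.1 TPM (orange) in the 3 DMSO libraries. Mitochondrial ribosomal proteins are detected throughout and HOXA, HOXB, type I interferon and cornified envelope genes lie wholly under 0.1 TPM, beside 66.1% detected over all genes.

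The target of the study was present at a moderate level. SUV39H1, which methylates lysine 9 of histone H3, was at 13.7, 12.9 and 15.4 TPM. Its paralog SUV39H2 was at 4.30 ± 0.878 TPM, below it in every library. In the H3K9 list 11 of 12 members were detected, with the co-repressor TRIM28 at 365 ± 8.17 TPM, the HP1 proteins CBX1 and CBX5 at 136 ± 12.9 and 16.1 ± 1.93 TPM, and the methyltransferases EHMT2 and SETDB1 at 60.9 ± 2.43 and 36.1 ± 4.03 TPM. SETDB2 was just under the detection level at 0.997 TPM. AURKA, a mitotic kinase, stood at 28.4 ± 1.95 TPM, and ZC3H12A, an endoribonuclease that degrades inflammatory transcripts and is also called MCPIP1, at 3.37 ± 0.449 TPM.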

How the data were processed

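RNA of SK-N-SH cells was sequenced in 12 libraries, of which the 3 labelled DMSO are described. The deposited tables give TPM, with 2 decimals, and expected counts of 18739 genes, per the file headers. As tools, the notes of the submitters on processing list RSEM 1.3.1, Bowtie2 and DESeq2 1.4.5, with hg38 as the build. No source used here gives the annotation or read filters. Genes were matched by Entrez identifier to RefSeq (GRCh38.p14) for coordinates and promoters. The deposited FPKM values were not used, and 0 single-library columns stayed without a sample.

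TPM values were averaged over the libraries (pandas 2.3.3, Python 3.11.15). No test was made, since no comparison was intended. The spread was taken on log2(TPM + 1), and a step with counts scaled by TMM in edgeR 4.0.16 (R 4.3.3) served 1 alternative. Only the calculation of the spread and the count of detected genes were checked on simulated data. The 30 gene lists, 43 families and the detection level were chosen with earlier results of these data known. Genes named are the 25 most abundant, the highest (up to 10) and the lowest members of each list, up to 3 per family, and the 10 most variable between libraries. Some genes that this rule names are not reported here. Pairings of genes and a few other members were added after their values had been seen. TPM shares depend on the set of genes listed, so a few abundant genes lower all others. Reads shared by near-identical genes were split by the authors' estimation.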

Additional observations from a re-analysis of the deposited data

How the results depend on the processing

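The count of detected genes was 12393 and stayed within 12344 to 12439 when each library was left out in turn. It was 13259 at 0.5 TPM, 11315 at 2 TPM, 12096 with 1 TPM required in each library, 12954 at 1 CPM and 12405 without the MTRNR2L genes, an alternative chosen after seeing the data. The share of the 100 most abundant genes ran from 33.1% to 33.9% over the libraries left out. It was 22.1% as a share of expected counts, which do not correct for gene length, and 29.4% without ribosomal protein genes. Leaving those out scales every TPM by 1.22, which brought the noradrenergic median to 25.3 TPM and the mesenchymal one to 20.2 TPM. With each library left out the medians ran from 19.2 to 21.7 and from 15.6 to 17.4 TPM, and with detected members only they were 22.4 and 18.4 TPM. The median SD of log2(TPM + 1) was 0.104 and ran from 0.0673 without DMSO 3 to 0.111 without DMSO 2. It was 0.079 without DMSO 1. With a library left out, the SD rests on fewer values and its median is lower at equal spread. The values with a library left out are therefore not directly comparable with 0.104.

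Distinct detected members of the lists numbered 478, or 477 to 481 over libraries left out, 521 at 0.5 TPM and 432 at 2 TPM. Those of the families numbered 744, or 738 to 760, 877 and 609. No list or family changed by over 1.5 times when a library was left out. At 0.5 TPM 14 families and 0 lists did, and at 2 TPM 5 families and 5 lists did, so that counts in sparse families rest on the level chosen. No paired analysis was possible because the results come from no test and only 1 group was described. Depth limits the lowest levels, where 1 count in a library decides between 0 and a value.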

Other observations

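Ion channels and adhesion families added to the picture of the cells. Of 91 potassium channel genes 24 were detected, led by KCNH2 at 72.0, 59.8 and 54.6 TPM and followed by the channel KCNK2 at 45.7 ± 1.74 TPM. Of 20 pore subunits of voltage-gated sodium and calcium channels 4 were detected, the highest being SCN2A at 3.65 ± 0.394 TPM. The clustered protocadherins, which give neurons their surface identity, differed by cluster. In the beta cluster 13 of 16 genes were detected, in the gamma cluster 12 of 22 and in the alpha cluster 2 of 15. PCDHGC3 stood at 236 ± 3.06 TPM, above PCDHGB7 at 43.2 ± 4.19 TPM. Gamma genes share their last exons, as alpha genes do among themselves, so the split of reads within each of these clusters is uncertain. The counts of detected genes are therefore not strictly comparable between clusters. The gap junction gene GJA1 was at 37.1 ± 1.68 TPM among 20 connexins with 4 detected.

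Antigen presentation and metal-binding genes were unevenly expressed. HLA-C was at 565 ± 39.9 TPM, and 5 of 6 class I genes were detected against 1 of 14 class II genes, HLA-DMA at 5.60 ± 1.04 TPM. Among 11 metallothioneins, which bind zinc and copper, MT2A was at 1030 ± 84.0 TPM and MT1E at 215 ± 31.7 TPM, while MT1G, MT1H, MT1B and MT4 had 0 counts. The globins HBQ1 and HBE1 were at 14.3 ± 2.56 and 5.62 ± 2.56 TPM. The small heat shock protein gene CRYAB was at 80.8 ± 0.567 TPM.

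Only 78 genes, or 1.02% of those at 10 TPM or more, differed by over 1.5-fold between the highest and lowest library, and several of the most variable ones have a near-identical copy. EIF3CL was at 0, 26.3 and 84.8 TPM, while the sum with EIF3C was 541, 499 and 515 TPM. H2AC19 was at 191, 0 and 0 TPM, and the sum with H2AC18 was 321, 387 and 391 TPM. MAGEA2B was at 42.8, 5.60 and 31.6 TPM, and the sum with MAGEA2 was 56.0, 51.7 and 48.7 TPM. In each pair the sum varied less between libraries than the single gene. PLXNA4, a semaphorin co-receptor, was at 22.9, 16.7 and 12.7 TPM and is also among the most variable.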
